A study of Mus musculus with 10 samples.

Results

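Resident fetal liver macrophage genes were measured in whole livers of 10 mouse fetuses of embryonic day 14.5. The groups were 5 wild type fetuses and 5 with the Zfp36l2 knockout, all of b6 and 129 mixed background. The missing protein is a relative of tristetraprolin that attaches to AU-rich stretches of mRNAs and speeds their decay. The members are C1qa, C1qb, C1qc, Vcam1, Adgre1, Csf1r, Cd163, Cd5l, Timd4 and Mertk, and every probe set whose annotation gives exactly that single symbol was taken. These were 16 probe sets for 10 genes, of 45037 probe sets and 18193 singly annotated genes on the array. Each liver is a separate animal and gave 1 array, and litter and sex were not used here. The labels do not say which part of Zfp36l2 was removed, or in which cells, beyond naming the genotype a knockout.

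Macrophages of the fetal liver sit at the centre of erythroblastic islands, where red cell precursors attach to them, mature and shed their nuclei. The macrophage binds erythroblasts, engulfs the expelled nuclei and returns iron to the surrounding cells. Its survival depends on signalling through the receptor encoded by Csf1r. The RNA came from whole livers, so fewer cells of a type and less RNA per cell cannot be told apart. Vcam1 is also made by endothelial and stromal cells, and its level here belongs to no single cell type.

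The C1q genes lie side by side on chromosome 4 in the RefSeq gene table, with C1qc between C1qb and C1qa. Promoter windows, running from 250 bases before to 50 bases after the gene start, were held for 6 of the 10 members in the RefSeq table (GRCm38.p6). Those of C1qb, C1qc and Cd5l are shown because their genes encode neighbouring C1q chains or carry a pair of facing half-sites described after the sequences. C1qb is at chr4:136886151-136886450 on the minus strand, C1qc at chr4:136892865-136893164 on the minus strand and Cd5l at chr3:87357631-87357930 on the plus strand. Capitals mark GAGGAA, the core letters bound by PU.1, and TGCTGA, a half-site bound by MAF proteins, each searched on both strands (TTCCTC and TCAGCA are their reverse complements). The motifs can share bases with each other, but no matches did in the windows shown.
C1qb: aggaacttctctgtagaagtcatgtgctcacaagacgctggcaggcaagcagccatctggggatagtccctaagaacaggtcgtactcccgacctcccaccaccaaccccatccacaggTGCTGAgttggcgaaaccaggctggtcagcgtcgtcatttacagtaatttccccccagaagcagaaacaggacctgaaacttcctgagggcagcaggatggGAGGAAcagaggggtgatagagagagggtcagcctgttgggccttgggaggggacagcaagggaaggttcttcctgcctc
C1qc: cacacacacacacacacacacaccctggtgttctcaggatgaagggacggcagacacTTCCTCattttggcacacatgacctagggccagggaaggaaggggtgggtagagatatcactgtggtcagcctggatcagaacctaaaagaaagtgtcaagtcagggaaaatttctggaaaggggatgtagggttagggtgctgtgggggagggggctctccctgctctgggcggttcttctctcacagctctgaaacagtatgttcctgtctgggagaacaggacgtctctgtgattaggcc
Cd5l: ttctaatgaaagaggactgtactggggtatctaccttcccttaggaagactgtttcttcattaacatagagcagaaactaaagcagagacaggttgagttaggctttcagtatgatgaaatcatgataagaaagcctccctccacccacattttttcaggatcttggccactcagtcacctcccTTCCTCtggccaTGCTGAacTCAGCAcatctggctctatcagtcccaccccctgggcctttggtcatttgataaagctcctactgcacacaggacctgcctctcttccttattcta

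GAGGAA was found once in each of these windows and in 28.3% of all 32851 promoter windows in the table. TGCTGA was found in 19.5% of all windows, among them those of C1qb, Cd5l and Timd4. In Cd5l the half-site and its reverse complement face each other with 2 bases between them, beginning 54 bases before the gene start. This arrangement, TGCTGANNTCAGCA, occurred in 2 of the 32851 windows (0.00609%), of which Cd5l is 1, and it was looked for after the Cd5l window had been seen. The windows of Mertk and Cd163 held neither motif. A match describes the letters only and says nothing of binding in these livers.

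Values are intensities normalized between arrays, on a linear scale, and intensities under 16 were treated as not measurable. Differences are knockout minus wild type on the log2 scale, with the standard error of limma, and a gene was called where its limma adjusted p over all 27022 tested probe sets was under 0.05. On its brightest probe set Zfp36l2 fell from 434 ± 91.0 in the livers labelled wild type to 102 ± 11.3 in those labelled knockout (SD, n = 5; limma adjusted p = 1.47e-06), without overlap. A gene is represented by its brightest probe set unless another is named. For arrays, the number of livers limits the precision.

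None of the macrophage genes was called. Of the 10, 9 were bright enough to be tested, and all 9 had a positive difference, with a median of 0.38, against a median of 0.000181 over all 12821 tested genes, of which 50.1% were positive. No member was called higher, where 0.156% of all tested genes were (20 genes). At an unadjusted p under 0.05, 4 members stood higher, C1qa, C1qb, C1qc and Csf1r, against 5.94% of all tested genes. In none of the 9 did every knockout liver lie above every wild type liver, which 1.36% of all tested genes showed. The members were chosen with results of these data known, so these counts are descriptions.

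**Figure D1:**
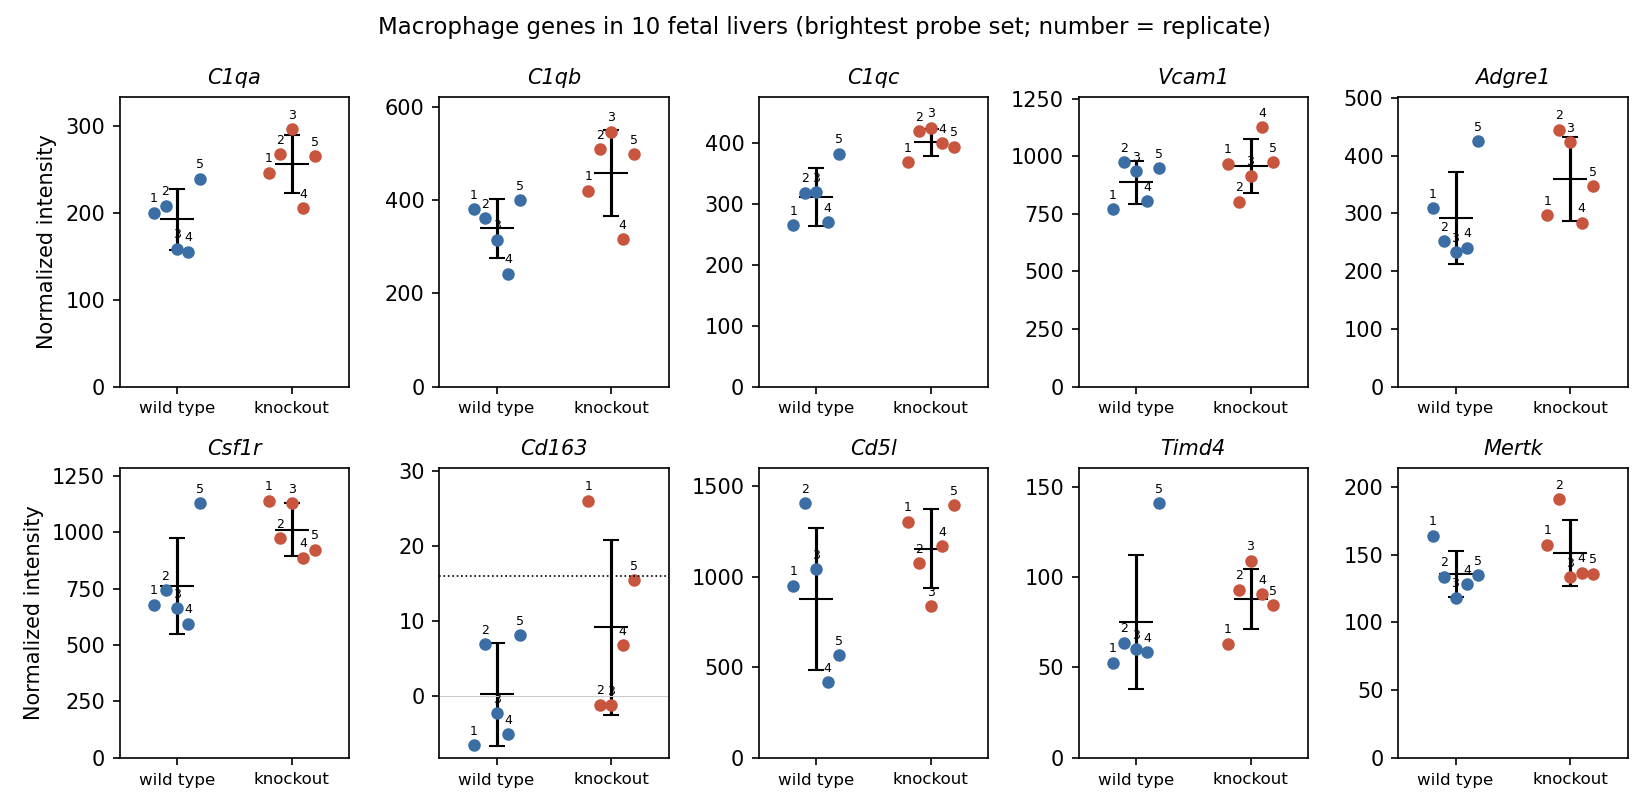
Normalized intensity of the 10 macrophage genes in each liver (brightest probe set), with the mean and SD of 5 livers in black and the replicate number above each point. The wild type and knockout points overlap in every panel, wild type replicate 5 is the highest wild type liver for the C1q genes, Csf1r, Adgre1 and Timd4 (6 of the 9 tested genes), and Cd163 lies mostly below the dotted line at 16.

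C1qa, C1qb and C1qc encode the chains of C1q, which starts the classical complement cascade and also tags dying cells for uptake. C1qc (probe set 1449401_at) read 265, 318, 319, 270.0 and 383 in wild type replicates 1 to 5 and 369, 420, 425, 400.2 and 394 in knockout replicates 1 to 5. Only wild type replicate 5 reached into the knockout range, and the other wild type livers all lay below every knockout liver. The means were 311 ± 47.5 and 402 ± 22.4 (SD, n = 5), a log2 difference of 0.38 ± 0.10 (limma adjusted p = 0.138). Its 95% interval ran from 0.17 to 0.59 before adjustment for the number of probe sets.

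C1qa (1417381_at) read 200.4, 208, 159, 156 and 239.7 in wild type and 246, 267, 297, 205 and 266 in knockout livers. In knockout replicate 4 the value lay among the wild type livers, and the other knockout livers lay above them all. The difference was 0.42 ± 0.13, from 193 ± 35.5 to 256 ± 33.7 (SD, n = 5; limma adjusted p = 0.252).

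C1qb has 3 probe sets. The brightest (1417063_at) read 381, 361, 315, 242 and 399.5 in wild type and 419.9, 509.7, 547, 316 and 499 in knockout livers, and the same knockout replicate 4 fell among the wild type values. Its difference was 0.43 ± 0.15 (limma adjusted p = 0.326). The other C1qb probe sets gave 0.36 ± 0.14 and 0.36 ± 0.17 (limma adjusted p = 0.366 and 0.502), so the 3 agreed in direction and differed in size by less than their errors. Wild type replicate 4 was the lowest liver of its genotype for C1qa and for the brightest C1qb probe set.

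**Figure D2:**
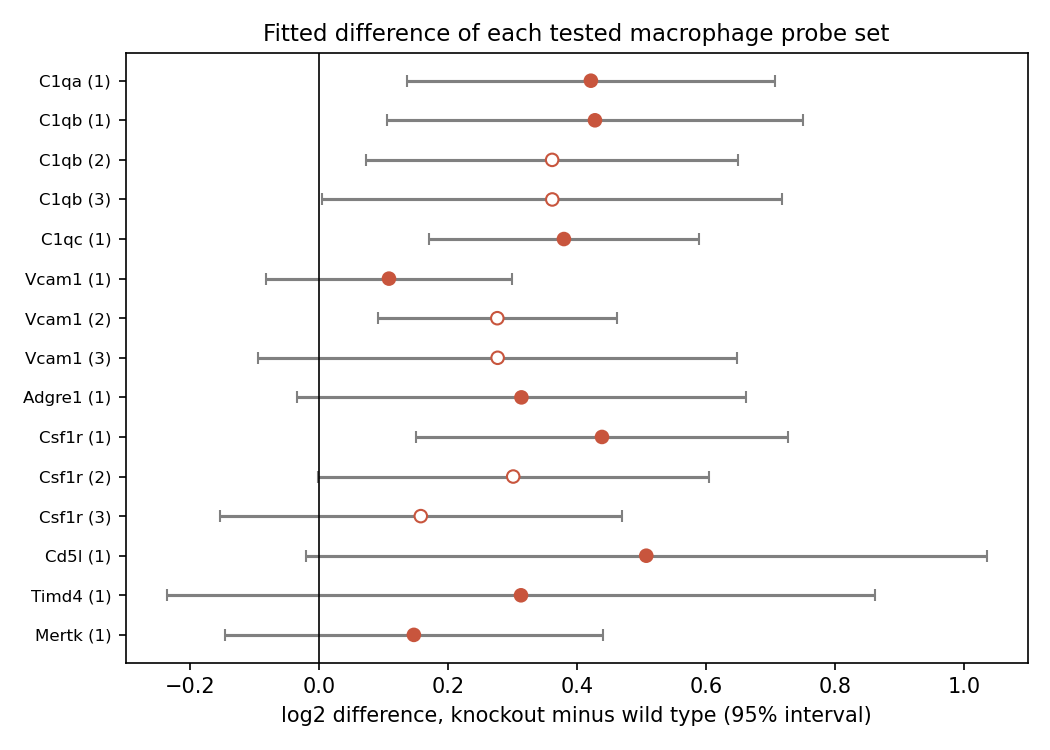
Log2 difference, knockout minus wild type, of the 15 tested macrophage probe sets with 95% intervals before adjustment. Filled points are the brightest probe set of each gene, and numbers in brackets count the probe sets of a gene from its brightest. All 15 points are above 0, from 0.11 for the brightest Vcam1 probe set to 0.51 for Cd5l, and the Cd5l and Timd4 intervals are the widest.

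Csf1r, the receptor for the macrophage growth factor CSF1, had a single wild type liver within the knockout range. Its brightest probe set (1419872_at) read 679, 742, 663, 593 and 1128 in wild type and 1139, 973, 1128, 886 and 922 in knockout livers. Wild type replicate 5 lay among the highest knockout livers, while the other 4 wild type livers all lay below every knockout liver. The difference was 0.44 ± 0.14, from 761 ± 212 to 1009.6 ± 117 (SD, n = 5; limma adjusted p = 0.237). The other Csf1r probe sets gave 0.30 ± 0.14 and 0.16 ± 0.15 (limma adjusted p = 0.516 and 0.797).

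Vcam1 and Adgre1 act at the surface of the macrophage. Vcam1 encodes the adhesion molecule by which the island macrophage holds erythroblasts through their integrin. On its brightest probe set (1448162_at) it read 770.2, 973, 935, 805 and 947 in wild type and 967, 802, 915, 1127 and 973 in knockout livers, and the genotypes were mixed throughout. The difference was 0.11 ± 0.09 (limma adjusted p = 0.758), with a 95% interval from -0.08 to 0.30. It was 0.05 without knockout replicate 4, 0.06 without wild type replicate 1, 0.17 without knockout replicate 2 and 0.22 as the mean of the gene's probe sets. The Vcam1 probe sets did not give the same picture, since 1415989_at averaged 544 ± 43.5 and 661 ± 82.2 (SD, n = 5), a difference of 0.28 ± 0.09 (limma adjusted p = 0.244). The dimmest (1451314_a_at) gave 0.28 ± 0.17 (limma adjusted p = 0.653).

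Adgre1 encodes F4/80, the classical surface marker of mouse macrophages. It read 309, 252, 233, 241 and 425 in wild type and 297, 445, 424, 284 and 347 in knockout livers. Wild type replicate 5 again stood with the high knockout livers, and knockout replicates 1 and 4 stood with the wild type. The difference was 0.31 ± 0.16 (limma adjusted p = 0.577).

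The remaining members are scavenger and uptake genes. Cd5l encodes a secreted protein of tissue macrophages that supports their survival and binds lipids. It read 949.7, 1407, 1040.3, 419 and 566 in wild type and 1303, 1076, 837, 1169 and 1394 in knockout livers. The low wild type livers were replicates 4 and 5, and wild type replicate 2, at 1407, exceeded every knockout liver. The difference of 0.51 ± 0.25 was the largest among the members and was not called (limma adjusted p = 0.537), with a 95% interval from -0.02 to 1.03. Without wild type replicate 4 it was 0.27.

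Timd4, a receptor for phosphatidylserine on dying cells, was dim. It read 52.7, 63.6, 59.97, 58.4 and 141 in wild type and 63.0, 93.1, 109, 90.6 and 84.3 in knockout livers, so the highest value of all was wild type replicate 5. The difference was 0.31 ± 0.26 (limma adjusted p = 0.757), and 0.57 without that liver (limma adjusted p = 0.315).

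Mertk, a receptor kinase that recognises dying cells through bridging proteins, read 164, 134, 118, 128 and 135 in wild type and 157, 191, 134, 137 and 136 in knockout livers. Both genotypes were mixed, with 7 of the 10 livers between 118 and 137, and the difference was 0.15 ± 0.14 (limma adjusted p = 0.799), or 0.06 without knockout replicate 2. Cd163, the receptor that takes up haemoglobin bound to haptoglobin, was not tested. It lay under 16 in 9 of the 10 livers and reached 26.1 in knockout replicate 1, so no fold is given. Of the defining macrophage genes it was the only member not measurable.

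**Figure D3:**
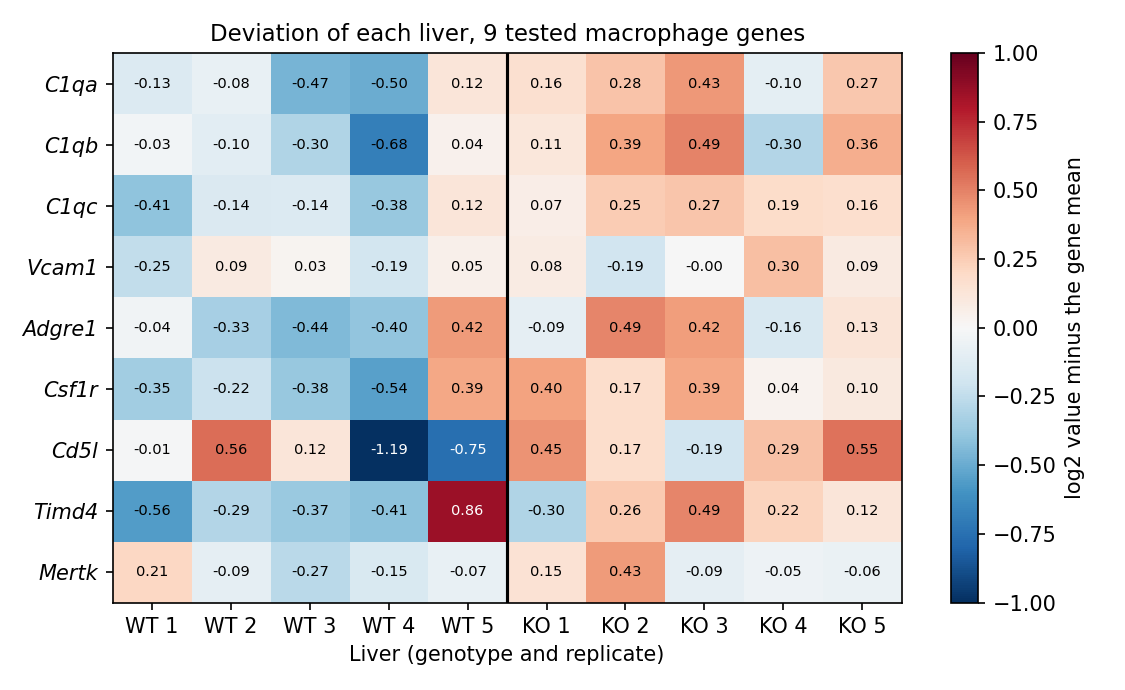
Log2 value of each liver minus the gene's mean over the 10 livers for the 9 tested macrophage genes (colour scale ends at -1 and 1). Wild type replicate 4 is below the mean for all 9 genes, wild type replicate 5 is above it for 7 and far below it for Cd5l, and knockout replicates 2 and 5 are above it for 8.

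Livers of the same genotype also differed from each other. The median deviation over the 9 genes was -0.13, -0.10, -0.30, -0.41 and 0.12 in wild type replicates 1 to 5 and 0.11, 0.26, 0.39, 0.04 and 0.13 in knockout replicates 1 to 5. Wild type replicate 5 was the only wild type liver above 0 and lay above knockout replicates 1 and 4. Wild type replicate 4 was the lowest liver for 4 of the genes and above the mean for none. No knockout liver was the lowest for any of the 9 genes. Wild type replicate 5 did not raise all members alike, as it was high for Timd4, Adgre1 and Csf1r, near the mean for Vcam1 and Mertk, and low for Cd5l.

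Leaving out wild type replicate 5 changed the calls. Csf1r then rose by 0.59 (limma adjusted p = 0.00569) and C1qc by 0.46 (limma adjusted p = 0.0270), and they were the 2 members called, where 0.648% of 12817 tested genes were called higher. C1qa and C1qb gave 0.51 and 0.49 without being called (limma adjusted p = 0.111 and 0.232). The other Csf1r probe sets were not called either, at 0.42 and 0.22 (limma adjusted p = 0.190 and 0.658). In the comparison lists below, leaving out wild type replicate 5 also called 4 of 13 neutrophil markers and 4 of 25 other tissue macrophage genes. It called 2 of 17 genes of the CSF1 axis list, 1 of 8 monocyte markers and 7 of 13 megakaryocyte markers, counting either direction. It also called 1 of 16 stellate and mesenchymal, 1 of 11 hepatocyte and 1 of 11 complement genes. The same held for 1 of 17 engulfment and 1 of 13 haem and iron genes. None was called of 14 endothelial, 13 erythroid and 14 island adhesion genes. Leaving out any of the other 9 livers called no member.

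**Figure D4:**
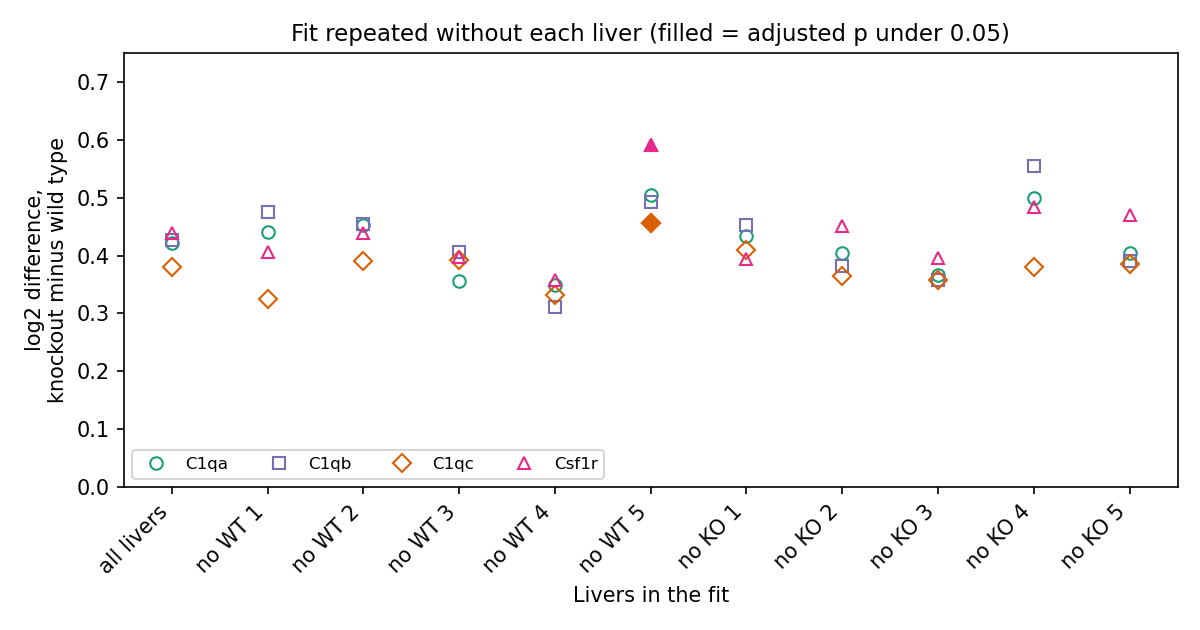
Log2 difference of the C1q genes and Csf1r (brightest probe sets) with all livers and after leaving out each liver in turn. Filled symbols mark a limma adjusted p under 0.05, which occurred for Csf1r (0.59) and C1qc (0.46) without wild type replicate 5.

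Markers of other cells moved between the same livers. Neutrophil markers had 13 tested genes, 11 with a positive difference, a median of 0.84 and 0 called by limma. At an unadjusted p under 0.05, 10 were higher, against 5.94% of all tested genes. Their summed intensity ran from 6456 to 28385 in wild type and from 14408 to 27156 in knockout livers, with wild type replicate 4 the lowest and wild type replicate 5 the highest of all. S100a9, a calcium-binding protein of neutrophils, averaged 4234 ± 2888 and 6876 ± 1571 (SD, n = 5; limma adjusted p = 0.337). The 8 tested monocyte markers summed to between 2545 and 4139 in wild type and between 3115 and 4275 in knockout livers, with a median of 0.33, 6 positive, 0 called and 2 higher at an unadjusted p under 0.05. Again wild type replicates 4 and 5 were the extremes of their genotype. Fn1, fibronectin, averaged 1782 ± 288 and 2295 ± 221 (SD, n = 5; limma adjusted p = 0.117). This gene alone gave 1702 of the 2545 in wild type replicate 4 and 2273 of the 4139 in replicate 5. Fn1 was lower still in wild type replicates 2 (1533) and 3 (1632), so Fn1 alone did not make replicate 4 the lowest sum. The part of neutrophils and monocytes in the macrophage gene values was not tested.

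Endothelial and stromal markers, which share Vcam1 with the macrophage, were closer between genotypes. The 14 tested endothelial markers summed to between 1413 and 1612 in wild type and between 1479.9 and 1898 in knockout livers, with a median of 0.10 (-0.02 without knockout replicate 2, 0.15 without 1 and 0.20 without 5), 9 positive and 0 called (2 higher and 1 lower at an unadjusted p under 0.05). Lyve1, a hyaluronan receptor of sinusoidal endothelium, averaged 318 and 352 (limma adjusted p = 0.682). The 16 stellate and mesenchymal markers summed to between 9236 and 10796 in wild type and between 9673 and 13772 in knockout livers, with a median of 0.06 (-0.06 without knockout replicate 2, 0.03 to 0.13 without any other liver), 13 positive and 0 called (1 higher at an unadjusted p under 0.05). Dlk1, a surface protein of fetal liver progenitors, averaged 4109 and 4370.4 (limma adjusted p = 0.839). It is counted in these sums, at 3548 to 4533 in wild type and 3846 to 5542 in knockout livers, so they are not stromal alone. The part of endothelial and stromal cells in the Vcam1 values was not tested.

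Other genes of tissue macrophages were mostly positive too. Of 25 tested, 24 were positive, with a median of 0.56 (0.37 with a floor of 32). Of the 25, 1 was called higher, against 0.156% of all tested genes. At an unadjusted p under 0.05, 13 stood higher, against 5.94%. Their summed intensity ran from 4754 (replicate 4) to 9728 (replicate 5) in wild type and from 8810 to 10570 in knockout livers. The part of neutrophils and monocytes in these values was not tested. Lgals3, which encodes the lectin galectin-3, rose from 329.8 ± 111 to 586 ± 28.0 (SD, n = 5; log2 0.89 ± 0.17, limma adjusted p = 0.0462). It read 304, 351, 309, 189 and 496 in wild type and 630.4, 568, 597, 568 and 566 in knockout livers, without overlap. That call was kept in 5 of 20 alternatives and lost on leaving out any single liver except wild type replicate 5, at 0.71 to 0.93. Lpl, lipoprotein lipase, the brightest gene of the list, averaged 1951 ± 375 and 2454 ± 210.0 (SD, n = 5; limma adjusted p = 0.261).

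In the list of the CSF1 axis and macrophage transcription factors, 16 of 17 tested genes were positive, with a median of 0.21, 0 called and 5 higher at an unadjusted p under 0.05. Leaving out wild type replicate 5 gave this list a median of 0.34, leaving out knockout replicate 4 also 0.34, and leaving out knockout replicate 1 0.35. Maf, the transcription factor whose half-site is marked in the promoters above, averaged 365 ± 47.6 and 417 ± 53.7 (SD, n = 5; log2 0.19 ± 0.11, limma adjusted p = 0.616). Genes of apoptotic cell recognition and engulfment had 13 of 17 positive and a median of 0.15, with 0 called and 3 higher at an unadjusted p under 0.05. That median was 0.24, with 1 called, without wild type replicate 5, 0.09 without replicate 1 and 0.08 without replicate 4 of the same genotype. Rac1, a small GTPase that drives engulfment, averaged 1733 and 1774 (limma adjusted p = 0.916).

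Signs were mixed in the list of C1 partners and receptors, which also holds later complement components, their receptors and regulators. Of its 11 tested genes 5 were positive, with a median of -0.0024 that turned to 0.07 with arrays scaled to a common median. That scaling also moved the median of all genes to 0.06. None was called (0 of 11, with 3 higher at an unadjusted p under 0.05). C1qbp, a protein that binds the C1q head, averaged 5604 and 5597 (limma adjusted p = 0.994).

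Haem and iron recycling genes were mixed, with 8 of 13 positive and 0 called. At an unadjusted p under 0.05, 6 were higher and 1 lower. Their median was 0.23, or 0.13 without knockout replicate 4 and 0.05 with a floor of 32. Fth1, the ferritin heavy chain, averaged 9239 and 9419 (limma adjusted p = 0.912). The list for adhesion in the erythroblastic island mixes genes of erythroblasts, macrophages and other cells. In it 7 of 14 genes were positive, with a median of -0.0090. With arrays scaled to a common median it turned to 0.06, as did the median of all genes. None was called, with 2 higher and 3 lower at an unadjusted p under 0.05. Klf1, an erythroid transcription factor counted in that list, averaged 4343 and 3868 (log2 -0.16 ± 0.06, limma adjusted p = 0.319).

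Erythroid markers had 12 of 13 tested genes negative, a median of -0.21, 0 called and 8 lower at an unadjusted p under 0.05, against 5.44% of all tested genes. With arrays scaled to a common median their median was -0.14, and that of all genes 0.06. Their summed intensity ran from 40957 to 53555 in wild type, highest in replicate 5, and from 39699.9 to 45166 in knockout livers. Slc4a1, the red cell anion exchanger, was the 1 positive gene of that list, at a log2 difference of 0.0006. It averaged 7929 and 7896 (limma adjusted p = 0.999). Hepatocyte markers had 7 of 11 positive, a median of 0.03 (-0.01 to 0.09 on leaving out single livers) and 0 called (3 higher at an unadjusted p under 0.05). Afp averaged 16358 and 16287 (limma adjusted p = 0.980). Normalization sets such bright values by rank and gave several livers of both genotypes the same Afp value, 16538. The Afp averages therefore say little about genotype. Of 13 megakaryocyte markers 6 were called, all lower, with a median of -1.11, where 0.172% of all tested genes were called lower. Pf4, a platelet chemokine, went from 1717 ± 273 to 656 ± 126 (SD, n = 5; limma adjusted p = 0.000107), so the same fit could call changes of that size. The platelet genes Ppbp, Plek and Gp5 were called at -1.38, -0.98 and -1.59, and Nfe2 averaged 1685 and 1493 (limma adjusted p = 0.639).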

How the data were processed

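The authors deposited 1 linear intensity per probe set and array. Per the labels' protocols, biotin-labelled cRNA was made from 1 µg of total RNA. How probe sets were summarised and scaled is not given in the sources used here. Array medians ran from 19.5 to 25.01, so intensities were quantile normalized. Values under 16 were set to 16, log2 was taken, and probe sets under the 40th percentile of mean log2 were left out, which kept 27022. An earlier analysis of these data floored at the lowest positive value (0.000978), which turns background values into very low log2 values, so that floor is an alternative here. Genotypes were compared in R 4.3.3 by limma 3.58.1 (linear model with genotype as its term, eBayes with an intensity trend, two-sided tests, Benjamini-Hochberg over all tested probe sets). Of all probe sets 34945 carried 1 symbol, 932 several and 9160 none.

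The members, the 13 comparison lists, the floor and the tests were chosen with earlier results of these data known. From each list the text names up to 4 called genes and the gene with the highest mean. Of 204 listed symbols 9 stood in more than 1 list. The method was tested on simulated data with known changes. Alternatives covered normalization, floor, filter, variance model, array weights, replicate block, probe set choice and leaving out each liver. Figures used matplotlib 3.10.9 in Python 3.11.15.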

Additional observations from a re-analysis of the deposited data

Results flagged for a closer look

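Dixon's ratio, the gap of the highest or lowest liver to its nearest neighbour over the range of its genotype, exceeded its 95% critical value in 7 of 72 groups of 5 livers tested, where chance gives about 1 in 20, or 3.6. Among the macrophage genes this was Timd4, high in wild type replicate 5 at a log2 value of 7.14 with the nearest wild type liver at 5.99. Zfp36l2 was high in wild type replicate 3 (9.22) and low in knockout replicate 2 (6.36). Maf was low in knockout replicate 4 (8.33, nearest 8.75). Of the remaining 3, C1qbp was low in wild type replicate 5 (12.3), Lyve1 low in knockout replicate 5 (8.15) and Dlk1 high in knockout replicate 2 (12.4).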

How the results depend on the processing

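Every difference of the 9 tested macrophage genes stayed positive in each of 21 alternatives, from 0.05 to 0.71 over 189 values. Only 2 of these were called, both without wild type replicate 5, so leaving out single livers gave 0 to 2 called members. The number of probe sets called over the whole array, 57, was far less stable. It was 94 with arrays scaled to a common median, 11 with the floor at the lowest positive value, 12 with a floor of 32, 4 without the filter, 9 without trend and 103 with array weights. Leaving out a single liver gave 13 (without wild type replicate 4) to 168 (without wild type replicate 5). With the replicate number as a replicate block it was 179, and 0 members were called. Deviations of same-numbered livers correlated at 0.03 to 0.13, above 0.1 only for replicate 5. The main fit did not use the number as a pairing. As a hint from the data, not the design, 4 of 5 knockout livers correlated best with the wild type liver of their own number. Lowest limma adjusted p-values under any alternative were 0.111 for C1qa, 0.0661 for C1qb, 0.194 for Adgre1 and 0.305 for Cd5l. Without the filter, Cd163 could be fitted and gave 0.14 (limma adjusted p = 0.795), which rests on 9 livers set to the floor. Scaling to a common median moved the median of all genes to 0.06. The fitted folds of the members ran from 1.08 to 1.42, and 5 livers a genotype limit the precision for differences of this size.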
